A study of Mus musculus with 30 samples.

Results

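The guanylate-binding proteins are a family of large GTPases that cells make in answer to interferon. Described here are 8 mouse members, Gbp2 to Gbp9, chosen by gene symbol from a table of 31427 symbols, with the entries of a symbol summed. All 8 were among the 11842 genes that reached 1 TPM in at least 2 of 24 libraries and were tested. TPM gives a gene's share of a library's transcripts, corrected for transcript length. The measurements are RNA sequencing of DC3.2, a mouse dendritic cell line. All 30 libraries give DC3.2 as the cell line, but the titles of the 24 replicated ones begin with DC32R and those of the 6 single ones with Dc3.2, and what the R stands for is not stated. In the 24 libraries, 4 genotypes (WT, IRF1KO, IRF2KO and DKO, in which IRF1 and IRF2 are both targeted) were each kept for 2 h in media alone, in 5000 U/mL of IFNα or in 2 ng/mL of IFNγ, with 2 libraries in each of the 12 groups. The sample titles call the WT cells nosg and the single mutants IRF1sg and IRF2sg, and no group is named as a control for the targeting itself. Whether a mutant line is 1 clone is not stated. A further 6 libraries without replicates hold WT and IRF2KO cells at 0 h and after 2 h with IFNα or with LPS at a dose not stated.

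Guanylate-binding proteins bind and hydrolyse GTP and assemble as coats on the membranes of intracellular bacteria and on the vacuoles of parasites such as Toxoplasma. They help to open those compartments and to activate inflammasomes, the complexes that start caspase cleavage and pyroptosis. Interferon γ acts on genes that carry GAS elements, and it induces IRF1. Type I interferons such as IFNα act through ISGF3, a complex with IRF9 that binds interferon-stimulated response elements (ISRE). IRF1 is known as an activator and IRF2 mostly as a repressor at overlapping ISRE-type sequences, and GBP genes are among the classic genes with such elements.

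Each replicated library held 10911 to 11101 genes at 1 TPM or more, and replicates of a group correlated with Pearson r from 0.974 to 0.988 across the tested genes, which are not independent replicates. Nothing in the labels says that the 2 libraries of a group are separate cultures, so p-values measure the spread between these libraries, which may be technical. The transcripts of the targeted genes were still present. Irf1 stood at 30.6 and 23.6 TPM in IRF1KO in media and at 19.7 and 22.5 in WT, and Irf2 stood at 18.2 and 17.4 TPM in IRF2KO in media and at 23.4 and 25.2 in WT. A gene-level TPM does not show whether a transcript is edited, so these values do not check the labels, which are used as given. Of 12 dendritic cell markers 7 passed the filter, and their list summed to between 595 and 1012 TPM per library. H2-Ab1 alone gave 362 to 532 TPM, and Itgax, Batf3, Irf8 and Cadm1 were at 31.6 TPM or more in every library. Flt3 was at 0 in all 24, and Clec9a, Xcr1, Itgae and Ccr7 did not exceed 0.08, 0.26, 0.71 and 0.38 TPM. Of the 7 that passed, Irf8, which is also in the list of interferon factors used here, rose with IFNγ in every genotype. Itgax and Cd24a were lower in mutants, with values given beside the GBP results. The macrophage and monocyte list summed to 1560 to 2600 TPM (7 of 8 genes listed passed, led by Lyz2). No marker of lymphocytes (at most 0.61 TPM in sum) or of stromal cells (at most 1.36 TPM) passed. In these bulk libraries, more cells that express a gene and more RNA per cell cannot be told apart.

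The members lie in 2 clusters. In RefSeq's annotation of GRCm38.p6, Gbp5 (chr3:142496934-142522344), Gbp7 (chr3:142530336-142550151), Gbp3 (chr3:142560016-142573213) and Gbp2 (chr3:142620663-142638008) stand in this order on the plus strand. Gbp8 (chr5:105012513-105053609), Gbp9 (chr5:105076464-105110357), Gbp4 (chr5:105115767-105139586) and Gbp6 (chr5:105270702-105295871) stand on the minus strand of chromosome 5. Some of these genes share sequence, which matters because RSEM divides reads that fit several transcripts. Of the 50-base stretches of Gbp6's transcripts, 62.3% were also found in Gbp10, and the entries of both genes name 1 transcript accession in common, so the division of reads between Gbp6 and Gbp10 is uncertain. Gene models of Gbp4, Gbp8 and Gbp9 in GENCODE M21 overlap on the same strand, and Gbp8 shared 9.38% of its stretches with Gbp4. On chromosome 3 the highest share between members was 4.13%, of Gbp3 with Gbp7.

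Promoter windows from RefSeq's GRCm38.p6 annotation, which run from 250 bases before to 50 bases after a start site, were at hand for 4 of the 8 members, Gbp2, Gbp3, Gbp5 and Gbp7. Gbp4, Gbp6, Gbp8 and Gbp9 had no entry. They are shown because the interferon elements named above are read by the factors that were targeted. The windows were searched on both strands for an ISRE core, TTCNNTTTC, and for a GAS element, TTCNNNGAA. The 250 bases before each start site follow, 5′ to 3′ on the plus strand, with matches in capitals.
Gbp2, chr3:142620413-142620662: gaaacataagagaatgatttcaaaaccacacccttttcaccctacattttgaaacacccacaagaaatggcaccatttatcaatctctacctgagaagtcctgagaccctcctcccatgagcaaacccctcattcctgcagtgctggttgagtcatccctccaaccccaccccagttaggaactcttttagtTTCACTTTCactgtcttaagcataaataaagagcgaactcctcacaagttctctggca
Gbp3, chr3:142559794-142560043: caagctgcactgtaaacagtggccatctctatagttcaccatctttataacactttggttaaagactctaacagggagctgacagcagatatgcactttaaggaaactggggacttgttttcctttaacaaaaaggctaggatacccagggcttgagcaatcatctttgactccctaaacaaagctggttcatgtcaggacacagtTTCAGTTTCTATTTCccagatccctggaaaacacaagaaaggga
Gbp5, chr3:142496684-142496933: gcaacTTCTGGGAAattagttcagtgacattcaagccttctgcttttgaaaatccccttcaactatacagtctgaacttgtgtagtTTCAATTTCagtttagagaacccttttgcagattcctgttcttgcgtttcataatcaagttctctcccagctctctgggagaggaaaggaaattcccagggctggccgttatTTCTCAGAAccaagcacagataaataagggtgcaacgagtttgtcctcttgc
Gbp7, chr3:142530086-142530335: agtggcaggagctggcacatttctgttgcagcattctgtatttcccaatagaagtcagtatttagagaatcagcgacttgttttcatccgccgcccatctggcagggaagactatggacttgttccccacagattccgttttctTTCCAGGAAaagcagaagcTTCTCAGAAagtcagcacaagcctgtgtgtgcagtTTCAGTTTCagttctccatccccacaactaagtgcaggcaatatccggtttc

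All 4 genes had an ISRE core. Counted from the start site, with the base just before it as −1, the match lay at −58 to −50 in Gbp2 (TTCACTTTC), at −52 to −44 in Gbp7 (TTCAGTTTC) and at −164 to −156 in Gbp5 (TTCAATTTC). Gbp3 held 2 overlapping cores, TTCAGTTTC at −44 to −36 and TTCTATTTC at −38 to −30, and its second annotated window held none. GAS matches were found in Gbp5, at −245 to −237 (TTCTGGGAA) and −52 to −44 (TTCTCAGAA), and in Gbp7, at −106 to −98 (TTCCAGGAA) and −87 to −79 (TTCTCAGAA). The windows of Gbp2 and Gbp3 held no GAS match. Of 32851 such windows of all genes, 8.56% held the ISRE core and 8.30% the GAS element. A match describes the letters only. The positions hold for RefSeq's start sites. GENCODE M21 starts Gbp2 at chr3:142620602, so the Gbp2 match lies inside that gene model. It starts Gbp5 at chr3:142493978, before the whole Gbp5 window.

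In WT cells Gbp2, which coats parasite vacuoles and carries a lipid anchor at its end, was the member that changed most. It stood at 4.48 and 0.92 TPM in media, at 34.8 and 33.7 with IFNα and at 334 and 344 with IFNγ. The 3 treatments did not overlap, although the 2 media libraries differed more from each other, in ratio, than those of either interferon. On the scale of log2(TPM + 1), on which all differences below are given and which understates the change of low genes, Gbp2 rose by 3.44 ± 0.41 (SE) with IFNα (limma adjusted p = 7.0e-05) and by 6.71 ± 0.41 with IFNγ (adjusted p = 2.1e-08). The latter is a 105-fold difference in TPM + 1.

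Gbp7, a member linked to oxidative defence against bacteria, had the highest WT level in media, at 13.6 and 13.9 TPM, and rose to 33.5 and 37.7 with IFNα and to 96.7 and 98.1 with IFNγ. Gbp3 rose from 5.34 and 5.19 TPM to 25.5 and 26.5 with IFNα and to 52.8 and 64.9 with IFNγ. Gbp5, a lipid-anchored member linked to inflammasome activation, was the lowest after IFNγ. It was at 0.12 TPM in both media libraries, at 0.73 and 1.22 with IFNα and at 4.84 and 4.51 with IFNγ. Its change with IFNα was 0.81 ± 0.22 (adjusted p = 0.18) and with IFNγ 2.34 ± 0.22 (adjusted p = 6.9e-06). So all 4 genes of chromosome 3 rose with IFNγ, and the IFNα change of Gbp5 did not pass.

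Gbp4, the first of the chromosome 5 members, was at 0.70 and 0.52 TPM in media, at 7.96 and 9.21 with IFNα and at 58.2 and 49.3 with IFNγ, a rise of 5.09 ± 0.28 with IFNγ (adjusted p = 6.4e-09). Gbp6 was at 0.20 TPM in 1 media library and listed at 0 in the other, and reached 3.92 and 3.46 with IFNα and 18.2 and 15.8 with IFNγ. Gbp8 went from 2.15 and 1.90 TPM to 5.63 and 5.29 with IFNα and to 20.5 and 18.6 with IFNγ. Gbp9 went from 1.05 and 1.60 TPM to 7.61 and 8.06 with IFNα and to 17.5 and 15.1 with IFNγ. In each of these genes the 2 libraries of every treatment stood apart from those of the other treatments. How often this held over all tested genes is not given.

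With IFNα 6 of the 8 members rose in WT, where 1.04% of all tested genes changed. Gbp5 and Gbp8 (1.10 ± 0.32, adjusted p = 0.26) were the 2 that did not pass. With IFNγ all 8 rose, against 1.26% of all tested genes. The dendritic cell marker Irf8 rose as well with IFNγ, by 2.67 ± 0.14 in WT, 2.60 ± 0.14 in IRF1KO, 2.25 ± 0.14 in IRF2KO and 2.30 ± 0.14 in DKO, and Fcgr1 of the macrophage list rose with IFNα, by 0.64 ± 0.11 in WT. Their part in the GBP differences was not tested. The median member difference was 2.02 with IFNα and 3.07 with IFNγ, and the medians over all tested genes were −0.06 and −0.01. Levels with IFNγ were above those with IFNα in both libraries for all 8 members, a separation whose share over all tested genes is not given. In the test of that direct comparison 7 of 8 members passed, and 0.768% of all genes did. The exception was Gbp9, at 0.96 ± 0.32 (adjusted p = 0.45). The difference between the interferons was largest for Gbp2 (3.27 ± 0.41) and Gbp4 (2.51 ± 0.28) and smaller for Gbp3 (1.14 ± 0.25, adjusted p = 0.044). Gbp3 and Gbp8 lost this call in each of the 4 fits without 1 library of the 2 groups (1.0 to 1.29 for Gbp3 and 1.60 to 1.73 for Gbp8), and Gbp9 lost its IFNα call without WT media replicate 1, where the values over the 4 such fits ran from 1.76 to 2.11. With the spread taken from the compared libraries alone, 3 members passed with IFNα, 8 with IFNγ and 2 between the interferons. With a pseudocount of 0.1 Gbp5 passed with IFNα too, and Gbp3 lost its call between the interferons. Gbp3 lost it also without the filter and with trimmed-mean or quantile scaling, and 6 of 8 passed in each of these runs. With a pseudocount of 5 the IFNα call of Gbp9 was lost.

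**Figure D1:**
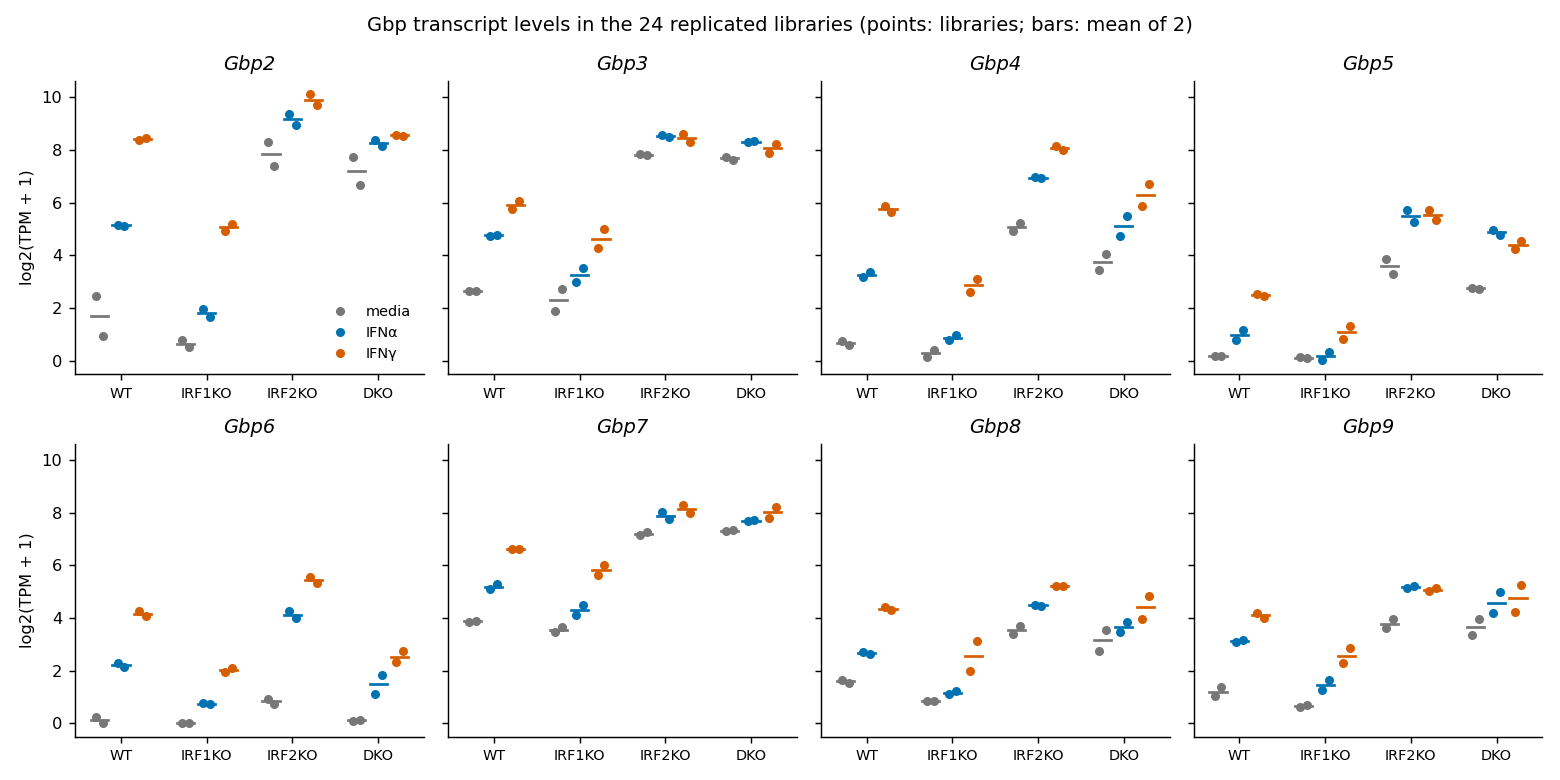
Each panel plots log2(TPM + 1) of 1 member in the 24 replicated libraries, with a point for each library, a bar for the mean of the 2 libraries of a group, genotypes along the x axis and treatments in colour. In WT the points climb from media to IFNα to IFNγ, and in IRF2KO and DKO the media points of 7 members, all but Gbp6, stand well above those of WT.

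IRF1KO cells had lower GBP levels under interferon, while no member passed the test in media. Gbp2 was at 0.72 and 0.43 TPM in IRF1KO in media, at 2.93 and 2.12 with IFNα and at 29.4 and 35.8 with IFNγ. With IFNγ, the mutant thus stood near the level of WT cells with IFNα. Gbp4 was at 0.11 and 0.34 TPM in media, at 0.73 and 0.95 with IFNα and at 5.16 and 7.57 with IFNγ. Gbp6 was listed at 0 in both media libraries, at 0.71 and 0.65 TPM with IFNα and at 2.83 and 3.27 with IFNγ. Because of the zeros, its differences from that group depend on the pseudocount.

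The other members of chromosome 5 also stood low in IRF1KO. Gbp8 was at 0.80 and 0.81 TPM in media, at 1.16 and 1.35 with IFNα and at 2.99 and 7.76 with IFNγ, with the IFNγ replicates far apart. Gbp9 was at 0.53 and 0.63 TPM, then at 1.41 and 2.10, and at 3.87 and 6.18. On chromosome 3, Gbp3 stood at 2.74 and 5.60 TPM in media, at 6.97 and 10.3 with IFNα and at 18.2 and 30.8 with IFNγ. Gbp5 was at 0.10 and 0.07 TPM, then at 0.03 and 0.25, and at 0.79 and 1.52. Gbp7 kept the highest level of the family in all 6 IRF1KO libraries, with 9.94 and 11.7 TPM in media, 16.5 and 21.6 with IFNα and 48.1 and 63.1 with IFNγ.

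In media the differences of IRF1KO from WT ran from −1.05 (Gbp2) to −0.05 (Gbp5), all 8 negative, and none passed. No gene of the whole table passed either (0% of all tested genes, 305 genes at an unadjusted p under 0.05). With IFNα 6 of 8 members were lower in IRF1KO than in WT, against 0.177% of all tested genes, and with IFNγ 6 of 8, against 0.236%. Gbp2 differed by −3.33 ± 0.41 with IFNα and by −3.34 ± 0.41 with IFNγ (adjusted p = 0.0012 and 0.00059). Gbp4 differed by −2.38 ± 0.28 and −2.91 ± 0.28, and Gbp6 by −1.48 ± 0.21 and −2.15 ± 0.21. The 2 members that missed with IFNα were Gbp5 (−0.79 ± 0.22) and Gbp8 (−1.52 ± 0.32, adjusted p = 0.13, called in a fit with the replicate number as a blocking term, the blocked fit), and both passed with a pseudocount of 0.1. Those that missed with IFNγ were Gbp7 (−0.81 ± 0.16, adjusted p = 0.062) and Gbp9 (−1.54 ± 0.32, adjusted p = 0.069), and both passed with the block, which gave 8 of 8. With a pseudocount of 0.1 the IFNγ calls of Gbp3 and Gbp5 were lost, which gave 4 of 8. A pseudocount of 5, dropping the filter and asking for a mean of 5 TPM each gave 5 of 8. Shares of all tested genes, here and below, are those of the main fit without the block. Every library of IRF1KO lay below every WT library for all 8 members under both interferons. The share of all tested genes with libraries apart in this way is not given, so this count has no background beside it.

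Leaving out 1 of the 4 libraries left 2 to 3 members called with IFNα and 3 to 6 with IFNγ. Gbp2 and Gbp4 were called in each of these fits, and Gbp6 was in each of those with IFNγ. In the other calls the sign never changed: Gbp3 ran from −1.76 to −1.25 with IFNα and from −1.64 to −0.91 with IFNγ, Gbp7 from −1.06 to −0.69 and Gbp9 from −1.87 to −1.51 with IFNα, and Gbp5 from −1.66 to −1.17 and Gbp8 from −2.36 to −1.23 with IFNγ. With IFNα, Gbp7 and Gbp9 were lost whichever library was left out, Gbp3 was lost except without IRF1KO IFNα replicate 2, and Gbp6 (−1.55 to −1.41) was lost except without WT IFNα replicate 2. The IFNα calls of Gbp7 and Gbp9 were also lost with a pseudocount of 5 or without the filter, which gave 4 of 8 each time. With IFNγ, the calls of Gbp3, Gbp5 and Gbp8 were lost except without IRF1KO IFNγ replicate 2. With the spread of the 4 compared libraries alone, no member passed in either comparison.

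Within IRF1KO, IFNγ still raised all 8 members over media, where 1.16% of all tested genes changed. The rise was 4.42 ± 0.41 for Gbp2, 2.57 ± 0.28 for Gbp4, 2.31 ± 0.25 for Gbp3 and 2.25 ± 0.16 for Gbp7, and for Gbp5 it was 0.97 ± 0.22, just past the threshold (adjusted p = 0.049). With IFNα 1 of 8 passed, Gbp7 at 0.76 ± 0.16 (adjusted p = 0.039), against 0.819% of all tested genes. The other 7 differences with IFNα ran from 0.06 (Gbp5) to 1.16 (Gbp2). Without 1 library, 5 to 7 members passed with IFNγ, and 1 did with the spread of the compared libraries alone. The Gbp5 call was lost in each of those 4 fits (0.72 to 1.22), that of Gbp8 in 3, all but that without IRF1KO IFNγ replicate 1 (1.14 to 2.28), and that of Gbp9 without IRF1KO IFNγ replicate 2 (1.62 to 2.18). The IFNα call of Gbp7 held only without IRF1KO IFNα replicate 1 (0.58 to 0.94). That call and the IFNγ calls of Gbp5, Gbp8 and Gbp9 were also lost with a pseudocount of 5.

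IRF2KO cells carried GBP transcripts at high levels without any interferon, with Gbp6 as the exception. Gbp2 was at 313 and 165 TPM in IRF2KO in media, against 4.48 and 0.92 in WT. Gbp3 was at 226 and 220.25 TPM, against 5.34 and 5.19, and Gbp7 at 139 and 152 TPM, against 13.6 and 13.9. Gbp5, barely present in WT, was at 13.6 and 8.86 TPM. Each of these 4 genes of chromosome 3 stood far outside the WT range. The 2 libraries of Gbp2 differed by more than those of the other 3 genes.

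On chromosome 5, Gbp4 was at 29.2 and 36.7 TPM in IRF2KO in media, Gbp8 at 9.39 and 12.1 and Gbp9 at 11.2 and 14.5, and each was above both WT libraries. Gbp6 was at 0.92 and 0.67 TPM, which is above WT in both libraries but under 1 TPM. Compared with WT, 7 of 8 members were higher, where 0.836% of all tested genes differed. The differences on chromosome 3 were 6.14 ± 0.41 for Gbp2 (adjusted p = 1.8e-07), 5.16 ± 0.25 for Gbp3, 3.42 ± 0.22 for Gbp5 and 3.31 ± 0.16 for Gbp7. Those on chromosome 5 were 4.39 ± 0.28 for Gbp4, 2.58 ± 0.32 for Gbp9, 1.95 ± 0.32 for Gbp8 (adjusted p = 0.0053) and 0.71 ± 0.21 for Gbp6 (adjusted p = 0.25, 95% interval 0.26 to 1.15). With a pseudocount of 0.1 in place of 1, which gives low values more weight, Gbp6 passed as well. The member median was 3.37, against −0.06 over all tested genes. Gbp8 lost its call when replicate 2 of WT in media or of IRF2KO in media was left out (1.78 to 2.11 over the 4 fits), and 3 members passed with the spread of the compared libraries alone. The dendritic cell marker Itgax was lower in IRF2KO than in WT in media (−0.66 ± 0.13, adjusted p = 0.017) and with IFNγ (−0.61 ± 0.13), and its part in the GBP differences was not tested.

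The double mutant also carried GBP transcripts at rest. In DKO in media, Gbp2 was at 214 and 101 TPM, Gbp3 at 213 and 197, Gbp7 at 155 and 159 and Gbp5 at 5.76 and 5.65. Gbp4 was at 9.76 and 15.5 TPM, Gbp8 at 5.80 and 10.6, Gbp9 at 9.16 and 14.7, and Gbp6 at 0.08 and 0.10. All but Gbp6 lay above both WT libraries. Of the 8 members 7 were higher in DKO than in WT, against 0.760% of all tested genes, with 5.51 ± 0.41 for Gbp2, 5.04 ± 0.25 for Gbp3, 3.42 ± 0.16 for Gbp7 and 3.05 ± 0.28 for Gbp4. Gbp6 differed by −0.01 ± 0.21 (95% interval −0.45 to 0.44). The same 7 were higher in DKO than in IRF1KO, where 0.667% of all tested genes differed, by 6.56 ± 0.41 for Gbp2 and 2.30 ± 0.32 for Gbp8. The Gbp8 call against WT (1.55 ± 0.32) was lost without DKO media replicate 2 or either WT media library (1.17 to 1.94). It was also lost with a pseudocount of 5 or without the filter. Under the spread of the compared libraries alone, 3 members passed against WT and 4 against IRF1KO. Of the dendritic cell markers, Itgax (−0.76 ± 0.13, adjusted p = 0.0060) and Cd24a (−1.17 ± 0.25, adjusted p = 0.040) were lower in DKO than in WT in media, Itgax also with IFNα (−0.66 ± 0.13), and both with IFNγ (−0.68 ± 0.13 and −1.28 ± 0.25). Their part in the GBP differences was not tested.

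Between DKO and IRF2KO in media no member passed, and 0.118% of all tested genes did (995 genes had an unadjusted p under 0.05). Gbp4 was lower in both DKO libraries than in either IRF2KO library, at −1.34 ± 0.28 (adjusted p = 0.13), and passed in the blocked fit, giving 1 of 8. Gbp5 and Gbp6 were also lower in both libraries, at −0.84 ± 0.22 and −0.72 ± 0.21, and Gbp6 passed with a pseudocount of 0.1. The 95% intervals were −0.65 to 0.41 for Gbp3, −0.24 to 0.46 for Gbp7 and −0.80 to 0.55 for Gbp9. A p that misses the threshold does not show that the 2 genotypes were alike.

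**Figure D2:**
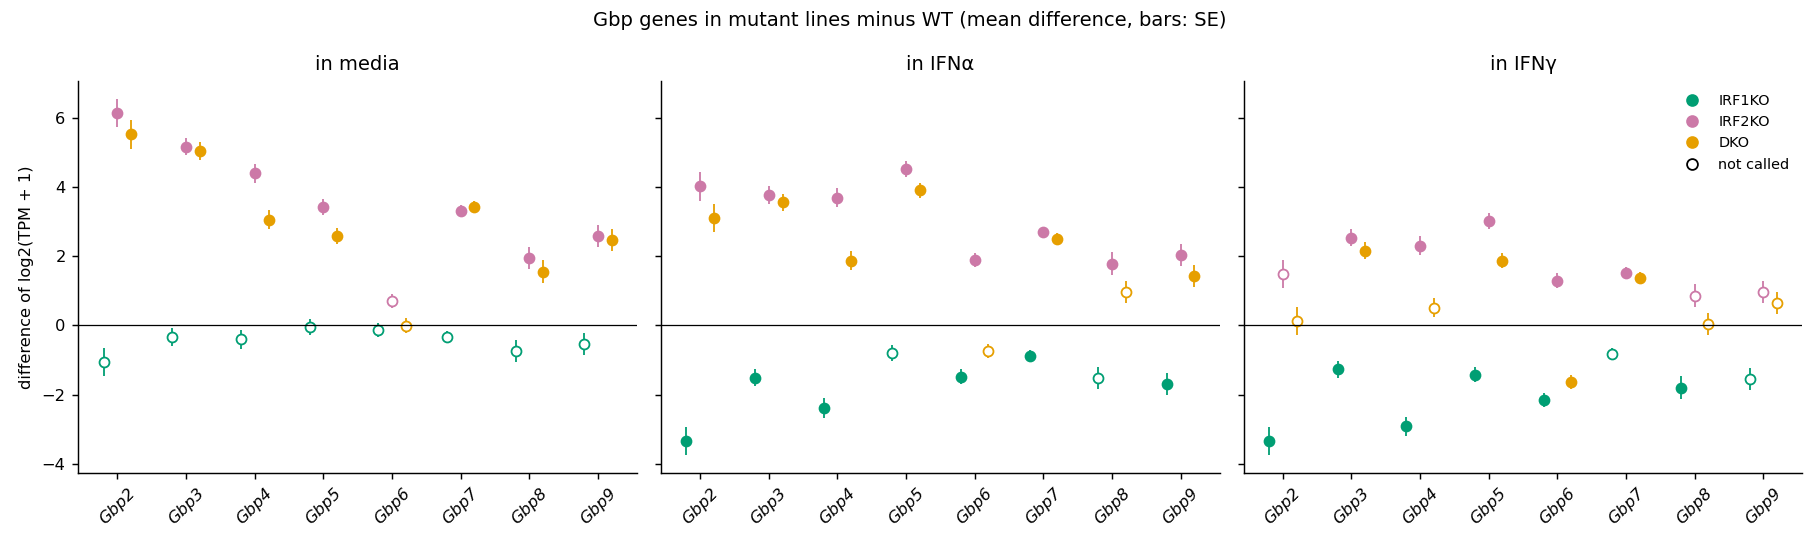
The plot shows, for each member, the difference of IRF1KO, IRF2KO and DKO from WT on the log2(TPM + 1) scale in media, with IFNα and with IFNγ, with bars of 1 SE and filled markers for an adjusted p under 0.05. IRF1KO lies at or below 0 throughout, IRF2KO above 0 throughout, and the DKO values of Gbp6 lie at −0.01, −0.74 and −1.63.

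In IRF2KO, interferon was given to cells in which 7 members already stood above WT. Gbp3 went from 226 and 220.25 TPM in media to 377 and 357 with IFNα and 384 and 310.3 with IFNγ. Gbp7 went from 139 and 152 TPM to 257 and 215 and to 312 and 254. Gbp2 reached 659 and 488 TPM with IFNα and 1099 and 833 with IFNγ, the highest values of any member in any group. Gbp5 reached 51.1 and 37.9 TPM with IFNα and 51.3 and 39.3 with IFNγ, so the 2 treatments overlapped, while in WT they did not.

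Gbp6 in IRF2KO, from under 1 TPM in media, reached 18 and 15 TPM with IFNα and 46.5 and 39.6 with IFNγ. Gbp4 reached 123 and 122 TPM with IFNα and 283 and 255 with IFNγ. Gbp8 reached 21.6 and 21 and then 36.1 and 36.6 TPM. Gbp9 reached 34.3 and 36.5 TPM with IFNα and 31.4 and 34.2 with IFNγ.

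Within IRF2KO, 4 of 8 members rose with IFNα, against 1.39% of all tested genes. They were Gbp6 (3.28 ± 0.21), Gbp5 (1.91 ± 0.22), Gbp4 (1.87 ± 0.28) and Gbp9 (1.40 ± 0.32, adjusted p = 0.034). With IFNγ 6 of 8 rose, against 1.13%. Gbp6 rose by 4.62 ± 0.21, Gbp4 by 3.0 ± 0.28, Gbp2 by 2.07 ± 0.41 (adjusted p = 0.015), Gbp5 by 1.93 ± 0.22, Gbp8 by 1.68 ± 0.32 and Gbp7 by 0.95 ± 0.16. Gbp3 did not pass with either, at 0.72 ± 0.25 and 0.63 ± 0.25 (adjusted p = 0.45 and 0.56), and Gbp9 did not with IFNγ (1.30 ± 0.32, adjusted p = 0.073). In the blocked fit the counts were 6 and 7, adding Gbp2 and Gbp7 with IFNα and Gbp9 with IFNγ. With a pseudocount of 0.1 they were 3 and 5, losing Gbp9 with IFNα and Gbp2 with IFNγ.

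Without 1 library, 3 members stayed called in IRF2KO with IFNα, where Gbp9 was lost each time (1.23 to 1.58), and 3 to 5 did with IFNγ. There Gbp2 was lost except without IRF2KO media replicate 1 (1.61 to 2.53), Gbp8 except without IRF2KO media replicate 2 (1.52 to 1.85), and Gbp7 without replicate 1 of either group (0.80 to 1.09). With the spread of the compared libraries alone, 2 and 3 members passed.

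In DKO, Gbp4, Gbp5 and Gbp6 were the members that rose with either interferon. Gbp2 went from 214 and 101 TPM in media to 330.0 and 279 with IFNα and 380.4 and 364 with IFNγ. Gbp3 went from 213 and 197 TPM to 314 and 320.1 and to 237 and 296, and Gbp7 from 155 and 159 to 203 and 209.99 and to 221 and 295. Gbp5 went from 5.76 and 5.65 TPM to 30.1 and 26.5 with IFNα and to 17.7 and 22.2 with IFNγ, so its IFNα level was the higher one. For Gbp3 also, both IFNα libraries lay above both IFNγ libraries.

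On chromosome 5, Gbp4 in DKO reached 25.9 and 44.3 TPM with IFNα and 57.8 and 102.5 with IFNγ. Gbp6 reached 1.19 and 2.59 and then 4.04 and 5.70 TPM, Gbp8 10.1 and 13.6 and then 14.7 and 27.4, and Gbp9 17.2 and 30.4 and then 17.7 and 37.5. For these 4 genes, replicate 1 was the lower library of DKO with either interferon.

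Of the 8 members 3 rose in DKO with IFNα, against 1.01% of all tested genes, and 3 with IFNγ, against 0.777%. They were Gbp4, Gbp5 and Gbp6 each time, by 1.39 ± 0.28, 2.13 ± 0.22 and 1.36 ± 0.21 with IFNα and by 2.55 ± 0.28, 1.63 ± 0.22 and 2.41 ± 0.21 with IFNγ. The other differences with IFNγ ran from 0.37 (Gbp3) to 1.33 (Gbp2). In the blocked fit 7 of 8 rose with IFNγ, all but Gbp3, and the share of all tested genes in that fit is not given. Without 1 library, 2 to 3 passed with IFNα and 3 to 6 with IFNγ, where the 6 came without DKO IFNγ replicate 1. The Gbp4 call with IFNα (adjusted p = 0.018) was lost without DKO IFNα replicate 2 or DKO media replicate 1 (1.02 to 1.77), and that of Gbp6 was lost with a pseudocount of 5. With a pseudocount of 0.1 the IFNα call of Gbp4 was lost too. With the spread of the compared libraries alone, 1 and 0 members passed.

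**Figure D3:**
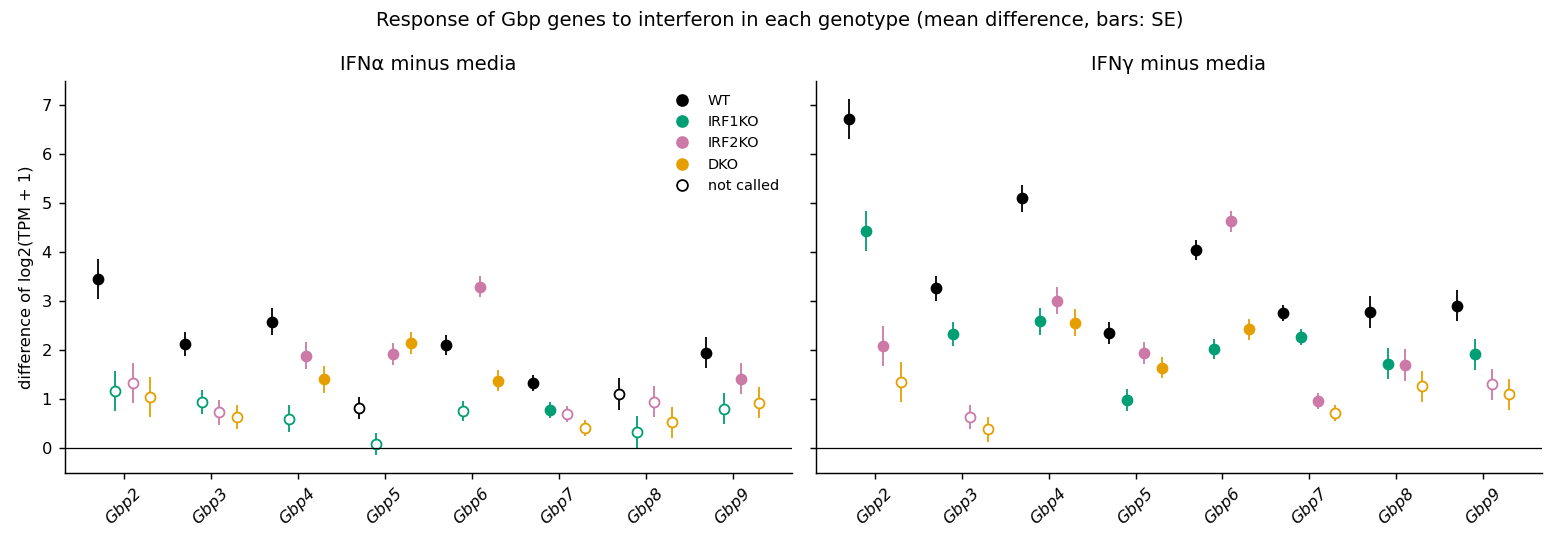
The plot gives, for each member and genotype, the difference of IFNα and of IFNγ from media on the log2(TPM + 1) scale, with bars of 1 SE and filled markers for an adjusted p under 0.05. Gbp2 falls from 6.71 in WT to 1.33 in DKO with IFNγ, while Gbp6 has its highest values on this scale, 3.28 and 4.62, in IRF2KO. With a pseudocount of 0.1 in place of 1, the Gbp6 response in IRF2KO minus that in WT was −0.23 with IFNα and −1.02 with IFNγ.

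Under interferon too, the family stood above WT in IRF2KO. With IFNα all 8 members were higher in IRF2KO than in WT, where 0.971% of all tested genes differed, from 1.79 ± 0.32 for Gbp8 to 4.52 ± 0.22 for Gbp5. With IFNγ 5 of 8 were higher, against 0.802%, namely Gbp5 (3.02 ± 0.22), Gbp3 (2.54 ± 0.25), Gbp4 (2.31 ± 0.28), Gbp7 (1.52 ± 0.16) and Gbp6 (1.29 ± 0.21). Gbp2 was higher in both IRF2KO libraries, at 1.49 ± 0.41, and did not pass (adjusted p = 0.14) unless the replicate number was a block, which added Gbp2 and Gbp9 and gave 7 of 8. With IFNα, Gbp8 lost its call in each fit without 1 library (1.75 to 1.83). With IFNγ, Gbp6 lost its call without IRF2KO IFNγ replicate 1 or WT IFNγ replicate 2 (1.18 to 1.41). It lost that call also with a pseudocount of 0.1, which gave 4 of 8. With the spread of the compared libraries alone, 5 members passed with IFNα and 0 with IFNγ.

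DKO cells under interferon split the family. With IFNα 6 of 8 members were higher in DKO than in WT, against 1.05% of all tested genes, led by Gbp5 (3.90 ± 0.22), Gbp3 (3.56 ± 0.25) and Gbp2 (3.11 ± 0.41). Gbp6, at 1.19 and 2.59 TPM, lay below both WT libraries at 3.92 and 3.46, by −0.74 ± 0.21 (adjusted p = 0.15). With IFNγ 3 of 8 were higher and 1 was lower, against 1.31% of all tested genes. Gbp3 (2.16 ± 0.25), Gbp5 (1.88 ± 0.22) and Gbp7 (1.38 ± 0.16) were higher, and Gbp6 was lower by −1.63 ± 0.21 (adjusted p = 0.00024). Gbp2 differed by 0.14 ± 0.41 (95% interval −0.73 to 1.0), Gbp8 by 0.04 ± 0.32 (−0.64 to 0.73), and Gbp4 overlapped with WT. The IFNα call of Gbp9 (1.44 ± 0.32, adjusted p = 0.039) held only without DKO IFNα replicate 1 (1.04 to 1.83), and Gbp6 with IFNα passed without DKO IFNα replicate 2. The Gbp9 call was also lost with a pseudocount of 0.1 or without the filter, which gave 5 of 8 each time. With the spread of the compared libraries alone, 4 members passed with IFNα and 0 with IFNγ.

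The direct comparison of DKO with IRF2KO under interferon called members of chromosome 5 and Gbp5, always lower in DKO. With IFNα 2 of 8 passed, against 0.380% of all tested genes, Gbp6 at −2.64 ± 0.21 (adjusted p = 4.1e-06) and Gbp4 at −1.82 ± 0.28 (adjusted p = 0.0037). With IFNγ 3 of 8 passed, against 0.481%, Gbp6 at −2.92 ± 0.21, Gbp4 at −1.79 ± 0.28 and Gbp5 at −1.14 ± 0.22 (adjusted p = 0.026). Gbp7 showed the smallest differences, −0.19 ± 0.16 and −0.14 ± 0.16, and for Gbp3 the 95% intervals were −0.74 to 0.32 and −0.91 to 0.15. Gbp2, at 380.4 and 364 TPM in DKO against 1099 and 833 in IRF2KO with IFNγ, did not pass (−1.36 ± 0.41, adjusted p = 0.49). Gbp5 lost its call in each fit without 1 library (−1.33 to −0.95), with a pseudocount of 0.1 and without the filter. Gbp4 lost its call without DKO replicate 1 or IRF2KO replicate 1 of the same treatment (−2.20 to −1.45 with IFNα and −2.20 to −1.38 with IFNγ), so 1 to 2 members passed in either comparison, and none did with the spread of the compared libraries alone.

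Whether a response itself differed from that of WT was tested as an interaction. For IFNα no member passed in any mutant. Of all tested genes 0.0253% passed for IRF1KO (203 at an unadjusted p under 0.05), 0.0676% for IRF2KO (394) and 0.0844% for DKO (166). For IFNγ the response was smaller in IRF1KO for 2 of 8 members, against 0.0844% of all tested genes, Gbp4 (−2.51 ± 0.39, adjusted p = 0.018) and Gbp6 (−2.02 ± 0.30, adjusted p = 0.012). It was smaller in IRF2KO for 3 of 8, against 0.0338%, Gbp2 (−4.64 ± 0.57), Gbp3 (−2.62 ± 0.35) and Gbp7 (−1.79 ± 0.23). It was smaller in DKO for 4 of 8, against 0.0929%, Gbp2 (−5.38 ± 0.57), Gbp3 (−2.88 ± 0.35), Gbp4 (−2.53 ± 0.39) and Gbp7 (−2.04 ± 0.23). The media level of these genes was raised in IRF2KO and DKO, and a response is counted from that level. Gbp6, whose media level was low in every genotype, had a difference of 0.58 ± 0.30 in IRF2KO, which turned to −1.02 with a pseudocount of 0.1, and −1.62 ± 0.30 in DKO (adjusted p = 0.050, not called, but past the threshold in the blocked fit). In that fit 4 of 8 passed in IRF2KO, with Gbp4 (−2.08 ± 0.39) added, and 6 of 8 in DKO, with Gbp6 and Gbp9 (−1.81 ± 0.45) added.

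Neither IRF1KO interaction passed with a pseudocount of 0.1. That of Gbp4 was lost without any of 6 of the 8 libraries (−2.75 to −2.27), the exceptions being IRF1KO IFNγ replicate 2 and IRF1KO media replicate 1, and that of Gbp6 without 4 of 8 (IRF1KO IFNγ replicate 1, IRF1KO media replicate 2, WT IFNγ replicate 1 and WT media replicate 2, −2.15 to −1.89). In IRF2KO, Gbp3 and Gbp7 were lost without IRF2KO IFNγ replicate 2 (−2.77 to −2.47 and −1.94 to −1.65). In DKO, Gbp4 was lost without DKO IFNγ replicate 1, DKO media replicate 2, WT IFNγ replicate 1 or WT media replicate 2 (−2.94 to −2.13). It was also lost with a pseudocount of 5. Using only the compared libraries for the spread, 0, 2 and 1 members passed in IRF1KO, IRF2KO and DKO.

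How far the resting level of IRF2KO reached was set against WT cells with interferon, a comparison added after the values were seen. Against WT with IFNα, 5 members were higher in IRF2KO in media and 1 was lower, where 2.03% of all tested genes differed. Gbp3 (3.05 ± 0.25), Gbp2 (2.70 ± 0.41), Gbp5 (2.61 ± 0.22), Gbp7 (2.00 ± 0.16) and Gbp4 (1.82 ± 0.28) were the higher ones, and Gbp6 was the lower one (−1.39 ± 0.21). Against WT with IFNγ, 2 were higher, Gbp3 (1.91 ± 0.25) and Gbp5 (1.08 ± 0.22, adjusted p = 0.011), and Gbp6 was again lower (−3.33 ± 0.21), where 2.60% of all tested genes differed. Gbp2 in IRF2KO in media was below both WT libraries with IFNγ, at −0.58 ± 0.41 (adjusted p = 0.64). Gbp5 lost its call except without IRF2KO media replicate 2 (0.80 to 1.36), Gbp7 (0.57 ± 0.16) was called in the blocked fit, and 4 and 2 members passed with the spread of the compared libraries alone. With a pseudocount of 0.1 the Gbp5 call against WT with IFNγ was lost as well.

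The order of the 12 groups differed between members. For Gbp2 the mean level rose from IRF1KO in media (0.575 TPM) through IRF1KO with IFNα (2.53) and WT in media (2.70), whose libraries overlap, to IRF1KO with IFNγ (32.6) and WT with IFNα (34.2), which overlap as well. DKO in media (157), IRF2KO in media (239) and DKO with IFNα (304) followed, each overlapping with the next, and then WT with IFNγ (339), DKO with IFNγ (372), IRF2KO with IFNα (574) and IRF2KO with IFNγ (966), without overlap. For Gbp6 the lowest 3 groups were those in media of IRF1KO (listed at 0), DKO (0.09) and WT (0.10), followed by IRF1KO with IFNα (0.68) and IRF2KO in media (0.795), whose libraries overlap. Then came DKO with IFNα (1.89), IRF1KO with IFNγ (3.05), WT with IFNα (3.69) and DKO with IFNγ (4.87). IRF2KO with IFNα (16.5) and WT with IFNγ (17) overlapped, and IRF2KO with IFNγ stood highest at 43.1 TPM. The 5 groups at the bottom of the Gbp6 order were thus the 4 in media and IRF1KO with IFNα, while in the Gbp2 order DKO and IRF2KO in media stood above WT with IFNα and below WT with IFNγ.

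A sum over members keeps the reads divided among them, but TPM divides reads by transcript length. Where members differ in length, the sum thus still depends on how shared reads were divided. The chromosome 5 sum also leaves out Gbp10 and Gbp11 of the same cluster, so it depends on the division between Gbp6 and Gbp10 as well. The 4 chromosome 3 members summed to 23.5 and 20.1 TPM in WT in media and to 488 and 512 with IFNγ, and the 4 chromosome 5 members to 4.10 and 4.02 and to 114 and 98.8. In IRF2KO the sums were 692 and 546 TPM in media on chromosome 3 and 50.7 and 63.9 on chromosome 5, and with IFNγ they were 1845 and 1436 and 397 and 366. In DKO with IFNγ they were 856 and 978 and 94.2 and 173. So in IRF2KO in media the chromosome 3 sum was above that of WT with IFNγ, and the chromosome 5 sum was below it. Because TPM is per length, members can be set side by side within a library. Gbp7 made up 49.2% and 57.5% of the family's TPM in WT in media, and 66.5% and 59.7% in IRF1KO in media. Gbp2 made up 16.2% and 3.82% in WT in media and 55.4% and 56.4% with IFNγ.

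**Figure D4:**
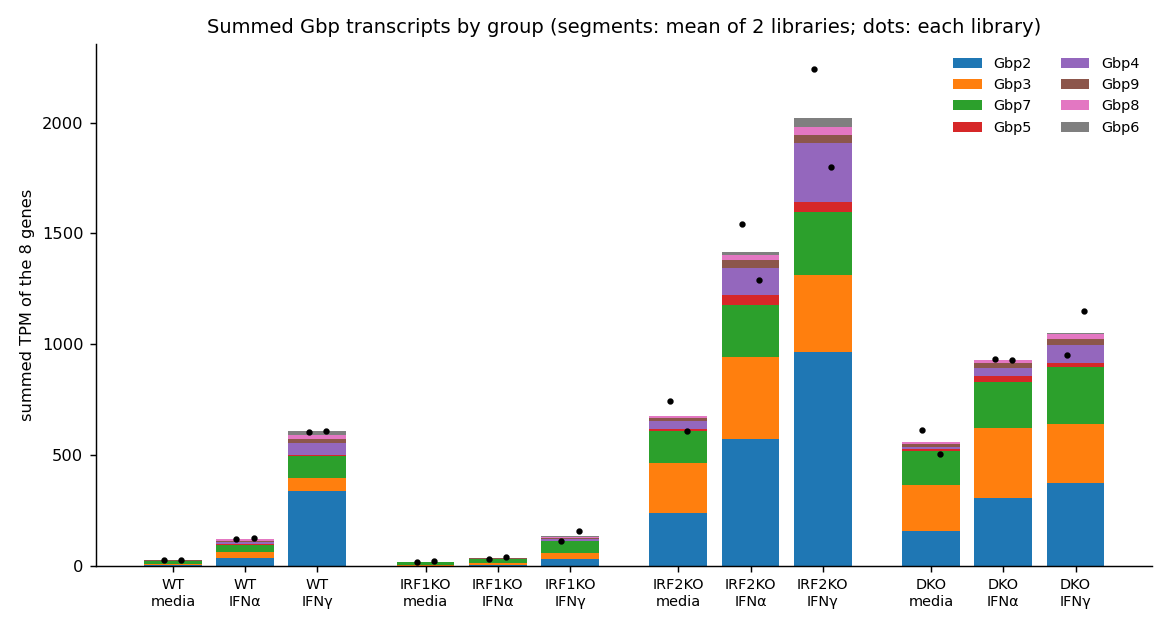
Bars show the summed TPM of the 8 members in each of the 12 groups, as stacked means of 2 libraries with chromosome 3 members (Gbp2, Gbp3, Gbp7, Gbp5) below chromosome 5 members (Gbp4, Gbp9, Gbp8, Gbp6), and dots show the sum in each library. The Gbp2 segment is the largest in WT with IFNγ (339 TPM) and in IRF2KO with IFNγ (966 TPM), and the sums of IRF2KO and DKO in media are of the size of that of WT with IFNγ.

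Across the 24 libraries the members' log2(TPM + 1) values followed each other, as a description of points that share treatments and genotypes. Pearson r was highest for Gbp3 with Gbp7 (0.986) and for Gbp4 with Gbp8 (0.984), a pair with overlapping models. Gbp6 was the least like the rest, from 0.522 with Gbp3 to 0.814 with Gbp4. Among 8097 other genes with at least 10 TPM in 2 libraries, the nearest to Gbp2 was Fgl2 (r = 0.881), which was also the nearest to Gbp4 (0.947) and Gbp8 (0.947). The entry labelled mmu-mir-155* was the nearest to Gbp3 (0.949) and Gbp7 (0.910), and Tmem140 was the nearest to Gbp5 (0.939) and Gbp9 (0.916). Gbp6 was nearest to the GTPase gene Tgtp2 (0.964), to Gbp11 (0.960) and to Ifi47 (0.949).

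Of the other GBP genes, Gbp11, annotated as a pseudogene, was at 0.35 and 0.34 TPM in WT in media, at 2.78 and 3.27 with IFNα and at 12.6 and 15.7 with IFNγ, and at 0.82 and 0.76 in IRF2KO in media. In DKO with IFNγ it was at 1.42 and 2.85 TPM, a difference from WT of −2.30 ± 0.20. Gbp10, whose reads cannot be cleanly told from Gbp6, reached 4.69 TPM at most, in IRF2KO with IFNγ, and was listed at 0 in both IRF1KO libraries with IFNγ. Gbp2b did not exceed 0.21 TPM in any library.

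Immunity-related GTPases, which act on the same vacuoles, were followed as a list with the giant GTPase Gvin1 (12 genes tested). In WT 10 rose with IFNα, against 1.04% of all tested genes, and 11 with IFNγ (list median 4.86), against 1.26%, with Irgm1 at 5.32 ± 0.13 and Tgtp1 at 6.42 ± 0.22. In IRF2KO in media 4 were higher than in WT (list median 0.66), among them Ifi47 (1.26 ± 0.17) and Irgm1 (0.79 ± 0.13), against 0.836% of all tested genes, and in DKO in media none, against 0.760%. Against WT with IFNγ, IRF2KO in media was lower for 11 of the 12, where 2 GBP members were higher and 1 lower and 2.60% of all tested genes differed. In IRF1KO 6 were lower than in WT with IFNα and 9 with IFNγ, against 0.177% and 0.236% of all tested genes. In DKO 7 were lower than in IRF2KO with either interferon, against 0.380% and 0.481%, among them Ifi47 at −2.90 ± 0.17 with IFNγ. The contrast between the GTPase list and the 8 members in IRF2KO in media, with medians of 0.66 and 3.37, was not tested.

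Genes of the interferon pathway were also followed. Of 17 genes for interferon receptors, kinases, transcription factors and other pathway genes such as Usp18, 6 rose with IFNα and 6 with IFNγ in WT. Of all tested genes 1.04% and 1.26% changed. In media none differed from WT in IRF1KO, IRF2KO or DKO, against 0%, 0.836% and 0.76% of all tested genes. Under interferon none differed in IRF1KO from WT with the same treatment, against 0.177% with IFNα and 0.236% with IFNγ. The same held for IRF2KO (0.971% and 0.802% of all tested genes) and for DKO with IFNα (1.05%). With shares this low, a count of none does not set the list apart from other genes, and a missed threshold does not show equal levels. In DKO with IFNγ 3 were lower than in WT, against 1.31% of all tested genes, namely Usp18 (−1.29 ± 0.22), Stat2 (−1.21 ± 0.26) and the targeted Irf2 (−0.69 ± 0.14). Irf1 rose by 4.40 ± 0.17 with IFNγ in WT, from 19.7 and 22.5 to 532 and 407 TPM, and was at 17.7 and 23.2 TPM in IRF2KO in media. Irf9 was at 2.29 and 2.72 TPM in WT and at 3.08 and 2.75 in IRF2KO in media. Of 23 genes for partners and downstream steps, such as inflammasome caspases, autophagy conjugation and prenyl transfer, Casp4, a caspase that senses bacterial lipopolysaccharide, was the 1 that rose with IFNγ in WT (1.72 ± 0.39), against 1.26% of all tested genes. Gsdmd, the pore-forming protein of pyroptosis, was lower in IRF2KO (3.80 and 2.56 TPM in media) and DKO (2.92 and 2.58) than in WT (33.7 and 28.5), by −2.95 ± 0.24 and −3.09 ± 0.24. It stood at 33.5 and 30.5 TPM in IRF1KO.

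The 6 single libraries have their own transcript set, in which Gbp5, Gbp6 and Gbp8 have an entry of their own, and were compared only with each other and without a test. At 0 h 7 of 8 members stood at least 2-fold higher in TPM + 1 in IRF2KO than in WT, where 1.22% of 10410 genes differed by as much in either direction. Gbp2 was at 0.58 TPM in WT and 144 in IRF2KO at 0 h, Gbp3 at 6.45 and 224, Gbp7 at 20.25 and 182, and Gbp4 at 1.05 and 46.1. Gbp9 was at 1.06 and 15.6 TPM, Gbp8 at 1.55 and 11.4, and Gbp5 was listed at 0 in WT and at 14.4 in IRF2KO. Gbp6 was at 0.05 and 0.49 TPM, a difference of 0.50, so here too it was the member with little transcript at rest in IRF2KO.

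After 2 h with IFNα the single WT library held Gbp2 at 26.5 TPM, Gbp3 at 28.6, Gbp4 at 8.71, Gbp7 at 49.8 and Gbp6 at 4.33. The IRF2KO library held Gbp2 at 586, Gbp3 at 394, Gbp4 at 187, Gbp7 at 279 and Gbp6 at 17.8. From 0 h, Gbp6 differed by 2.34 in WT and 3.66 in IRF2KO on the log2 scale, and Gbp3 by 1.99 and 0.81. In WT 7 of 8 members were at least 2-fold higher with IFNα, against 1.83% of all genes changed by as much, and in IRF2KO 5 of 8, against 2.06%.

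With LPS, the bacterial ligand of TLR4, the members went in different directions. In IRF2KO, Gbp2 stood at 448 TPM with LPS against 144 at 0 h, Gbp5 at 58.6 against 14.4 and Gbp3 at 335 against 224. Gbp4 stood at 28.9 against 46.1, Gbp8 at 4.97 against 11.4 and Gbp9 at 9.45 against 15.6. The sum of the chromosome 3 members was 564 TPM at 0 h and 1063 with LPS, and that of the chromosome 5 members 73.7 and 44.9. In WT, Gbp2 was at 7.80 TPM with LPS against 0.58, a difference of 2.48, while the other 7 members differed by −0.94 (Gbp8) to 0.35 (Gbp6). The chromosome 5 sum in WT was 3.71 TPM at 0 h and 2.17 with LPS. In IRF2KO 2 members were at least 2-fold higher with LPS and 1 lower, against 4.28% of all genes, and in WT 1 was higher, against 3.08%. With 1 library per condition, none of these differences has a replicate check.

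**Figure D5:**
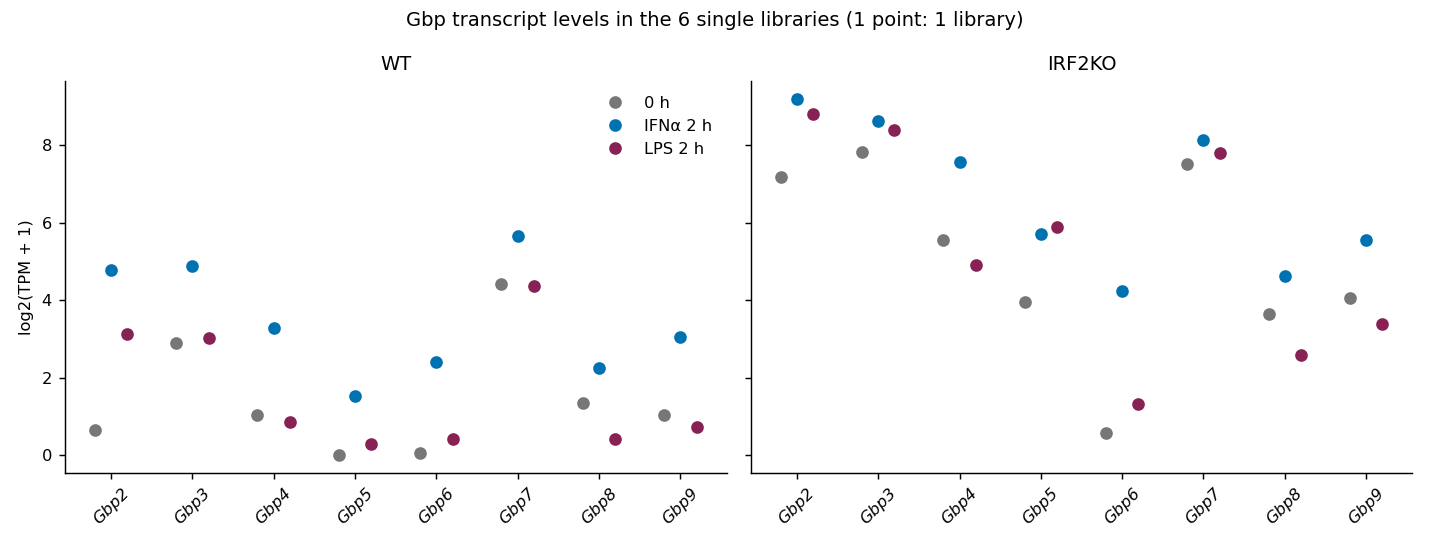
The plot gives log2(TPM + 1) of each member in the 6 single libraries, with WT on the left, IRF2KO on the right and 1 point per library at 0 h and after 2 h with IFNα or LPS. In IRF2KO with LPS, Gbp2 and Gbp5 lie above their 0 h points at 448 and 58.6 TPM, and Gbp4, Gbp8 and Gbp9 lie below theirs.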

How the data were processed

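TPM values, deposited by the authors as 1 table, cover 30 RNA-seq libraries (24 in 12 groups of 2, and 6 single ones). Per the submitters' processing notes, bcl2fastq 2.20, Bowtie 0.12.2 and RSEM were used, with the builds mm10 and GRCm38. TPM keeps no read totals, so depth is unknown and a count model was not used. Each symbol's entries were summed within the 24 and within the 6 libraries, whose transcript sets differ.

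Values of the 24 libraries were taken as log2(TPM + 1) and modelled with limma 3.58.1 (R 4.3.3), 1 coefficient per group and eBayes with its trend option. Tested were the 11842 genes reaching 1 TPM in 2 or more libraries, with 12 residual degrees of freedom. All p-values are two-sided, with Benjamini-Hochberg adjustment run separately for the 30 comparisons, of which some share libraries, and calls need an adjusted p under 0.05. The method was tested on simulated data. Python 3.11.15 with numpy 2.4.6, pandas 2.3.3 and matplotlib 3.10.9 served for the promoters, sums and plots. Figures carry the SE of the fit.

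Each replicate number goes with 1 date-like code in the titles, so the numbers were taken to pair the libraries. For 56 of the 66 group pairs, the deviations of same-numbered libraries had a correlation over 0.1 (lowest −0.16, median 0.233, highest 0.481). The main fit has no block, and a blocked fit, which adds the number as a term (11 residual degrees of freedom) is quoted where it changes a call. Shares of all tested genes come from the main fit. Those of the blocked fit and of the other runs are not given, so counts of members in those runs have no background beside them. Also tried were a pseudocount of 0.1 or 5, dropping the filter or asking for a mean of 5 TPM, trimmed-mean and quantile scaling, the compared groups alone, and leaving out 1 library.

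The members and gene lists were chosen with earlier results of these data known. Some markers of the dendritic cell and macrophage lists are named for their levels. Named besides these and the 8 members are the other GBP genes, Irf1, Irf2, Irf9 and Gsdmd, at most 3 called genes of a list in a comparison, and the nearest genes by Pearson r. The rule named 1 further gene that is not reported here.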

Additional observations from a re-analysis of the deposited data

Results flagged for a closer look

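For 9 combinations of member and mutant, the response to IFNγ differed from that in WT by the interaction test. In IRF1KO these were Gbp4 (−2.51) and Gbp6 (−2.02) on the log2(TPM + 1) scale. In IRF2KO they were Gbp2 (−4.64), Gbp3 (−2.62) and Gbp7 (−1.79), and in DKO Gbp2 (−5.38), Gbp3 (−2.88), Gbp4 (−2.53) and Gbp7 (−2.04). Each value is the response in the mutant minus that in WT, so all 9 responses were smaller in the mutant on this log scale. The media levels of these genes were raised in IRF2KO and DKO, and a response is counted from that level. In mean TPM, Gbp2 went from 239 in media to 966 with IFNγ in IRF2KO, from 157 to 372 in DKO and from 2.70 to 339 in WT. Neither IRF1KO call held with a pseudocount of 0.1 or with the spread of the compared libraries alone. For IFNα no member of any mutant passed this test.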

How the results depend on the processing

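Of 125 called differences of members, none changed sign under any alternative run, and all 125 had the same sign within both replicate numbers. The block, the changed filters and the compared groups alone leave the differences themselves as they were. Those runs could therefore not change a sign. Called differences were picked from these same libraries, so equal signs in both numbers are no separate check. TPM without counts gives no depth, so no limit of detection can be stated, and values under 1 TPM rest on the pseudocount. With the replicate block no call was lost, and the count rose from 3 to 7 of 8 for IFNγ in DKO and from 0 to 1 for DKO against IRF2KO in media, which trimmed-mean scaling, quantile scaling and a pseudocount of 0.1 also gave (1 each). It moved no other count of members by over 1.5 times.

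With a pseudocount of 0.1 the count was 3 for IFNα in IRF1KO and 0 for the IFNγ interaction in IRF1KO. With a pseudocount of 5 it was 0 for IFNα in IRF1KO, 5 for IFNγ in IRF1KO, and 2 and 1 for the IFNα interactions in IRF2KO and DKO. Without the filter it was 0 for IFNα in IRF1KO. Estimating the spread from the compared groups alone, with fewer libraries behind it, gave 3 for IFNα in WT, 0 and 1 for IFNα and IFNγ in IRF1KO, 2 and 3 in IRF2KO, 1 and 0 in DKO, and 2 between the interferons in WT. Against WT it gave 3, 5 and 0 for IRF2KO in media, IFNα and IFNγ, 3 and 0 for DKO in media and IFNγ, and 0 and 0 for IRF1KO with IFNα and IFNγ. It gave 0 and 0 for DKO against IRF2KO under the interferons and 4 for DKO against IRF1KO. For the interactions it gave 0 and 1 for IFNγ in IRF1KO and DKO and 1 for IFNα in DKO. Leaving out 1 library gave the ranges 0 to 1 for IFNα and 5 to 7 for IFNγ in IRF1KO, 3 to 5 for IFNγ in IRF2KO, 2 to 3 for IFNα and 3 to 6 for IFNγ in DKO. It gave 2 to 3 and 3 to 6 for IRF1KO against WT with IFNα and IFNγ, 1 to 2 for DKO against IRF2KO with either interferon, and for the interactions 0 to 2, 1 to 3 and 3 to 5 for IFNγ in IRF1KO, IRF2KO and DKO and 0 to 1 for IFNα in DKO. For IRF2KO in media against WT with IFNγ it gave 2 to 3. The cause of these changes was not tested.

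The values that changed sign were all uncalled. Under a pseudocount of 0.1, Gbp6 in DKO against WT in media became 0.13, the IFNα interactions of Gbp5 and Gbp6 in IRF2KO −0.26 and −0.23, and the IFNγ interaction of Gbp6 in IRF2KO −1.02. Under a pseudocount of 5, the IFNα interactions in IRF2KO of Gbp4, Gbp8 and Gbp9 became 0.48, 0.17 and 0.16, and the IFNγ interactions of Gbp5 became 0.72 in IRF2KO and 0.30 in DKO. Trimmed-mean scaling turned Gbp7 in DKO against IRF2KO in media to −0.0311. Quantile scaling turned Gbp5 with IFNα in IRF1KO to −0.19, Gbp5 in IRF1KO against WT in media to 0.14 and Gbp6 in DKO against WT in media to 0.13. Without 1 library, the ranges that crossed 0 were −0.35 to 0.0707 (Gbp7) and −0.85 to 0.19 (Gbp9) in DKO against IRF2KO with IFNγ, −0.39 to 0.47 for Gbp8 in DKO against WT with IFNγ, −0.14 to 0.12 for Gbp6 in DKO against WT and −0.44 to 0.19 for Gbp9 in DKO against IRF2KO in media, −0.0749 to 0.20 for Gbp5 with IFNα in IRF1KO, −0.74 to 0.0753 for Gbp3 and −0.26 to 0 for Gbp6 in IRF1KO against WT in media, and −0.32 to 0.0067 for the IFNα interaction of Gbp8 in IRF2KO.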
